A study of Homo sapiens with 18 samples.

Results

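ESR1 encodes estrogen receptor alpha, and the 41 regions described here are all the regions of the deposited accessibility table that overlapped chr6:151800000-152500000 (hg19), an interval of 700 kb around the gene, out of 132604 regions in the table. The ESR1 span was taken as 151.978 to 152.451 Mb, by which 8 regions lay upstream of the gene, 31 within it and 2 beyond its end. Within the interval regions were taken by position alone, and the members were chosen with earlier results of these data known. Each is named here by the distance in kb of its midpoint from the start of the span. The +1 kb region thus lies just inside the gene and the -23 kb region upstream of it. The assay was Omni-ATAC-seq, in which the Tn5 transposase inserts sequencing adapters into open DNA, and the cells were T47D, an established line from a human breast carcinoma. All cells were first held in medium with almost no serum and no phenol red. They then received the synthetic progestin R5020 (promegestone) at 0.1 nM, R5020 at 10 nM, or DMSO vehicle, for 6 h or for 18 h, which makes 6 groups of 3 libraries. Whether libraries of 1 group stem from separate cultures is not stated in the labels. The p-values therefore measure only how far these libraries spread, and that spread may be technical.

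Estrogen receptor alpha is a nuclear receptor that binds estrogen and then acts on chromatin as a transcription factor, and it is the receptor that defines luminal breast cancers such as the one T47D was derived from. Its gene is long and is transcribed from several alternative promoters spread over a wide stretch at its 5′ end. Progestins act through the progesterone receptor, a related nuclear receptor whose gene is itself a known target of estrogen receptor alpha in breast cells. In the order of RefSeq genes ESR1 lies between CCDC170, which encodes a coiled-coil protein, and SYNE1, which encodes a nuclear envelope protein. The region list assigns no region to a gene, and exons and introns of hg19 were not analysed here. Regions outside the ESR1 span may therefore lie within CCDC170 or SYNE1. The name ESR1 regions means only that they lie in the interval.

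RefSeq gives 6 start windows for ESR1 on GRCh38.p14, each of 250 bases before and 50 bases after a start, on the plus strand of chromosome 6. Their starts lay 0, 33.85, 149, 150.5, 151 and 152.4 kb from the first. The 3 printed here are the first, which marks the start of the gene, and those at 33.85 and 151 kb. Their distances fall within those spanned by the +34 kb region, from 32.8 to 34.6 kb past the span start of hg19, and the +151 kb region, from 150.3 to 152.6 kb. The starts at 150.5 and 152.4 kb also fall within the latter, near its ends, and their windows are not printed. The start at 149 kb lies at the edge of the +149 kb region, from 148.67 to 148.96 kb, and its window is not printed either. The hg19 span start was taken as 151.978 Mb, a rounded value. Starts this close to the end of a region therefore cannot be placed inside or outside it. These distances were set side by side, each in its own build, without aligning the builds. Capitals mark the hexamer TGTTCT, which the progesterone receptor recognises and which was searched on both strands.

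ESR1 window at 0 kb, chr6:151656422-151656721 (plus): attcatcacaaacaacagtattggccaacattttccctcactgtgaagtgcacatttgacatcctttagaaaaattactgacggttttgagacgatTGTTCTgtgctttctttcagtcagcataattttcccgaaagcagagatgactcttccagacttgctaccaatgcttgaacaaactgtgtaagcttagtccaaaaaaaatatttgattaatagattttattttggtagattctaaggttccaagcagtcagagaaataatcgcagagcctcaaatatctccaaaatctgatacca

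ESR1 window at 33.85 kb, chr6:151690277-151690576 (plus): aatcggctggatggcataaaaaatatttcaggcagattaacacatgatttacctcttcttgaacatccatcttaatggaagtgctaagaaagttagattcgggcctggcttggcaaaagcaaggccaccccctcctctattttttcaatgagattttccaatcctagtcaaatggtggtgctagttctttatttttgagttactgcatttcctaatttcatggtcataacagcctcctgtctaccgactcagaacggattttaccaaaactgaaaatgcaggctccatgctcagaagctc

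ESR1 window at 151 kb, chr6:151807432-151807731 (plus): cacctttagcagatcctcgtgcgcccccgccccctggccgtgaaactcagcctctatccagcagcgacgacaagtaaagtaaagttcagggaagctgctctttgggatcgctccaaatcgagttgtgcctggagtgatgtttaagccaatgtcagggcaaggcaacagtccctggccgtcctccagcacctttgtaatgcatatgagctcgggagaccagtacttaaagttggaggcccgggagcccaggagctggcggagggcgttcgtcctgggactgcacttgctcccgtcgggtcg

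The hexamer was present in 1 of the 6 ESR1 windows, the first, and in 14.8% of the 35116 RefSeq windows of the same length. The full progesterone receptor palindrome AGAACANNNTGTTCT, which contains the hexamer, was in none of the 6 and in 0.00285% of all windows. The estrogen receptor palindrome GGTCANNNTGACC was also in none of the 6 (0.057% of all windows), as were the forkhead motif TGTTTAC (3.42%) and the GATA motif AGATAA (10.3%), all searched on both strands. The first 2 windows were poor in G and C, at 36.3% and 41%, and the other 4, from 149 kb on, ran from 50% to 59.7%, against a median of 58.7% over all windows. A match is a description of the letters and shows no binding, and a missing match says only that the letters are not in that window.

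Counts within regions summed to 8756311 to 39984217 per library. The 5000 regions with the most counts took 33.5% to 34.6% of the counts in the 10 nM libraries at 6 h and 37.0% to 41.7% in the vehicle libraries, and on average 33.6% against 38.2% at 18 h. The first 2 principal components of log2 CPM (counts scaled to library size) held 43.5% and 19.6% of the variance. The 10 nM library of replicate 1 at 18 h had the lowest mean correlation with its own group (0.844), and vehicle replicate 1 at 6 h lay at the far end of the first component. Levels below are CPM against library sizes scaled by trimmed mean of M values (TMM), and the call threshold was a Benjamini-Hochberg adjusted p of 0.05 in edgeR's quasi-likelihood test over 132304 regions. All 41 ESR1 regions passed the filter on low counts.

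In vehicle cells the ESR1 regions were unequal. Over the 6 vehicle libraries the mean level ran from 0.163 to 36.2 CPM, with a median of 1.82 CPM against 2.13 CPM over all tested regions, and 16 of the 41 regions lay under 1 CPM. The region at +107 kb (152084452-152085656) was the strongest, at 36.2 CPM or 30.0 CPM per kb of width, above 94.5% of all tested regions. The region at +151 kb (152128337-152130644) was second by CPM and the widest, at 2307 bp, but ninth per kb, at 11.5 CPM per kb. The next by CPM were those at +244, -163, -23 and +34 kb. The 6 strongest regions held 61.4% ± 1.85 (SD, n = 3) of the summed CPM of the interval in vehicle cells at 6 h and 59.5% ± 1.65 at 18 h. Wider regions had higher levels (Spearman's rho 0.80, Pearson's r 0.81 with log2 CPM, across 41 regions that share their libraries). The median width was 382 bp, close to the 386 bp of the whole table, and the median gap between neighbours was 9673.5 bp against 10010 bp.

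With 10 nM R5020 at 6 h, accessibility of the ESR1 locus both rose and fell, at different places. Of the 41 regions, 9 were called higher and 13 lower, in total 22 or 53.7% of the members, where 25.1% of all tested regions were called, 16.7% higher and 8.42% lower. The rises ran from 2.25-fold to 17.0-fold and the falls from 1.59-fold to 5.84-fold. Replicate values of the groups did not overlap at 27 of the 41 regions, against 44.7% of all tested regions. The median log2 fold change was -0.13 over the members and -0.05 over all tested regions. Upstream of the span 5 of 8 regions fell and 1 rose, within it 8 of 31 fell and 7 rose, and beyond its end 1 of 2 rose. The count was 13 without 10 nM replicate 1 and 14 without vehicle replicate 2, and it was 14 in a fit that had the share of the 5000 strongest regions as a covariate. That share was itself lower in every 10 nM library than in every vehicle library at 6 h. The covariate fit therefore cannot fully part the share from the dose.

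**Figure D1:**
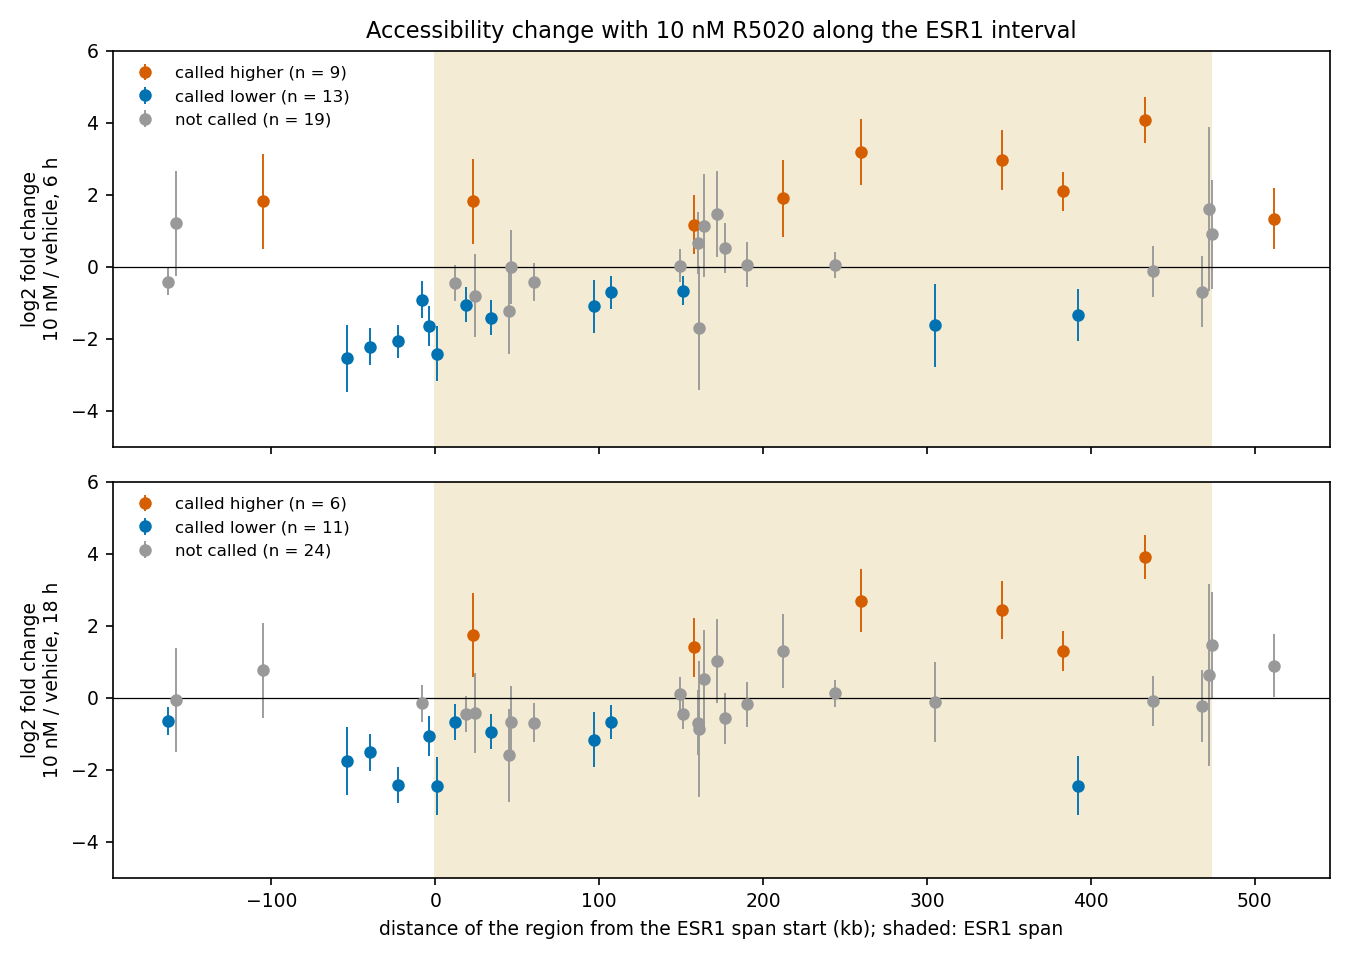
Log2 fold change of 10 nM R5020 against vehicle at 6 h (top) and 18 h (bottom) for the 41 regions, by distance in kb from the ESR1 span start, with 95% intervals and the span shaded. Most called falls lie between -54 and +151 kb and most called rises beyond +151 kb, with the +433 kb region highest at both times.

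The largest response of the locus was at +433 kb (152410859-152411421), toward the far end of the ESR1 span. The 3 vehicle libraries at 6 h held 1.26, 0.921 and 1.21 CPM, the 3 with 0.1 nM held 1.30, 1.25 and 0.623 CPM, and the 3 with 10 nM held 17.6, 19.9 and 18.7 CPM. The 10 nM libraries stood far above both other groups, which overlapped each other. The rise against vehicle was 17.0-fold (log2 4.09, SE 0.31, 95% interval 3.45 to 4.73; edgeR adjusted p = 3.33e-08). The counts behind these levels were 12 to 25 per vehicle library and 376 to 638 per 10 nM library. Per kb of width this region was 31st of the 41 in vehicle cells over both times, at 2.20 CPM per kb, and first with 10 nM at 6 h, at 33.3 CPM per kb. Its share of the summed CPM of the interval was 0.499% ± 0.132 with vehicle and 9.65% ± 0.305 with 10 nM at 6 h (SD, n = 3).

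Other regions of the interval also rose, most of them from a low level. At +260 kb (152238040-152238492) vehicle libraries held 0.315, 0.773 and 0.729 CPM and 10 nM libraries 5.48, 5.52 and 6.79 CPM, a 9.16-fold rise (log2 3.20, SE 0.44; edgeR adjusted p = 1.75e-05). At +346 kb (152323406-152323757) vehicle libraries held 0.630, 0.552 and 0.648 CPM and 10 nM libraries 4.92, 3.70 and 5.50 CPM, a 7.77-fold rise (log2 2.96, SE 0.40; edgeR adjusted p = 1.4e-05). At both places every 10 nM library lay above every vehicle library. The +383 kb region (152360144-152360910) already had an appreciable level with vehicle, 3.26, 5.23 and 3.72 CPM, and reached 15.3, 17.8 and 20.1 CPM with 10 nM, a 4.26-fold rise (log2 2.09, SE 0.26; edgeR adjusted p = 7.00e-06). It was the single called rise with a vehicle level of at least 2 CPM. Of the weaker named rises, that at +212 kb was 3.73-fold (edgeR adjusted p = 0.00881), at -105 kb 3.53-fold (0.039), at +23 kb 3.51-fold (0.0221) and at +158 kb 2.25-fold (0.035). The call at -105 kb was lost without 10 nM replicate 1 or any 1 of the vehicle libraries. The call at +23 kb was lost without 10 nM replicate 1, vehicle replicate 1 or vehicle replicate 3, and the call at +158 kb without 10 nM replicate 1 or 3 or vehicle replicate 2 or 3. The covariate fit also lost the calls at -105 and +23 kb.

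**Figure D2:**
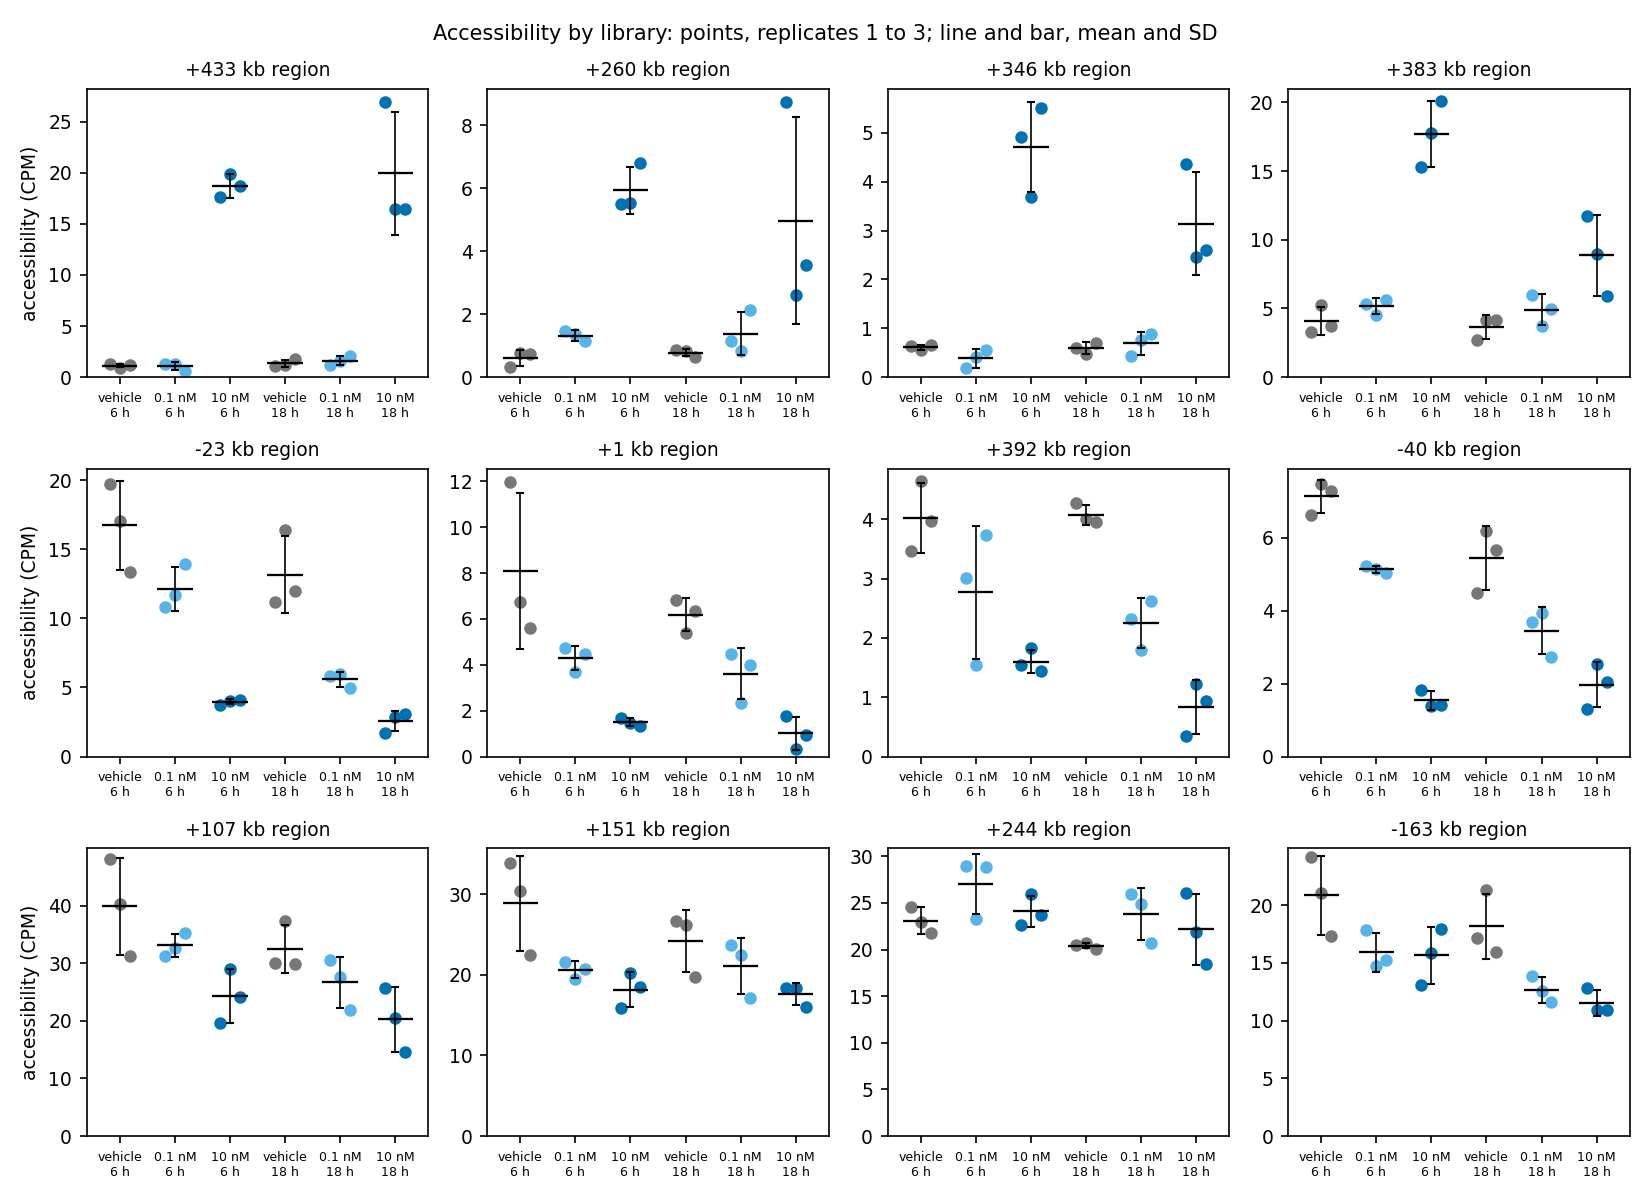
CPM of 12 regions in every library of the 6 groups (points, replicates 1 to 3 from left to right), with the mean and SD of each group as a line and bar. The upper panels show the regions that rose most with 10 nM at 6 h, the middle panels regions that fell, and the lower panels 4 of the strongest regions in vehicle cells.

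The largest falls at 6 h lay around the start of the ESR1 span, from -54 to +1 kb. The +1 kb region (151978848-151979853), the nearest to the span start, held 12.0, 6.74 and 5.59 CPM with vehicle and 1.69, 1.47 and 1.35 CPM with 10 nM. Every 10 nM library lay below every vehicle library, although the vehicle libraries themselves were spread. The fall was 5.35-fold (log2 -2.42, SE 0.37, 95% interval -3.19 to -1.65; edgeR adjusted p = 5.56e-05), and its log2 value was -1.76 in the fit with the strongest-region share as a covariate. At -23 kb (151954330-151955361) the level went from 19.7, 17.1 and 13.4 CPM to 3.75, 4.05 and 4.07 CPM, a fall of 4.21-fold (log2 -2.07, SE 0.22; edgeR adjusted p = 1.14e-06). At -40 kb (151937219-151938032) it went from 6.62, 7.48 and 7.29 CPM to 1.83, 1.38 and 1.40 CPM, a fall of 4.65-fold (log2 -2.22, SE 0.25; edgeR adjusted p = 1.67e-06). Neither pair of groups overlapped, and the 10 nM libraries of both regions were close to each other. The fall with the greatest ratio was at -54 kb (151924135-151924704), from 3.78, 3.43 and 1.21 CPM to 0.703, 0.267 and 0.468 CPM (log2 -2.54, SE 0.44, 5.84-fold; edgeR adjusted p = 0.000225). The -4 kb region fell 3.12-fold (edgeR adjusted p = 0.000113) and the +34 kb region (152010773-152012610) 2.66-fold, from 15.5, 15.6 and 8.99 CPM to 4.36, 5.52 and 5.21 CPM (log2 -1.41, SE 0.23; edgeR adjusted p = 0.000118).

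Of the 6 regions with the highest vehicle levels, those at +107, +151, +244 and -163 kb moved less in ratio than those at -23 and +34 kb. At +107 kb the vehicle libraries held 48.1, 40.2 and 31.2 CPM and the 10 nM libraries 19.7, 29.0 and 24.1 CPM, a fall of 1.64-fold (log2 -0.71, SE 0.23; edgeR adjusted p = 0.0238). At +151 kb they held 33.9, 30.4 and 22.4 CPM and 15.9, 20.2 and 18.5 CPM, a fall of 1.59-fold (log2 -0.67, SE 0.19; edgeR adjusted p = 0.0147). Groups did not overlap at either region, but both calls were lost without 10 nM replicate 1 or 3, without vehicle replicate 1 or 2, and in the fit with the covariate. The +149 kb region, just before +151 kb in the list, was not called at 6 h (log2 0.03, 95% interval -0.43 to 0.49). At 18 h the +149 kb region was not called either (log2 0.11, 95% interval -0.37 to 0.59). The +244 kb region (152221823-152223027) held 24.6, 23.0 and 21.8 CPM with vehicle and 22.6, 26.0 and 23.7 CPM with 10 nM. These groups overlapped, and the log2 fold change was 0.06 (95% interval -0.30 to 0.42). At -163 kb the log2 fold change was -0.41 (95% interval -0.80 to -0.03; edgeR adjusted p = 0.114). Of the other named falls, the +97 kb region fell 2.14-fold (edgeR adjusted p = 0.0266), the +305 kb region 3.08-fold (0.0355) and the +392 kb region 2.54-fold (0.00688). The call at +97 kb was lost without any 1 of the 10 nM libraries or vehicle replicate 2 or 3 and in the covariate fit, and the call at +305 kb without any 1 of the 6 libraries.

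Position and level went together with direction, which is given here as a description. The interval was divided after the values were seen, at the widest region, at +151 kb. Up to and including it, 2 of 21 regions were called higher and 11 lower with 10 nM at 6 h, with a median log2 fold change of -0.80. Past it, 7 of 20 were called higher and 2 lower, with a median of 1.02. The vehicle level differed between the same stretches, with a median of 4.35 CPM up to +151 kb and 0.895 CPM past it. Regions called higher had a median vehicle level of 0.601 CPM (range 0.342 to 3.86) and regions called lower 6.28 CPM (range 0.827 to 36.2). Across the 41 regions, Spearman's rho between distance and log2 fold change was 0.46 (Pearson's r 0.43), and between log2 vehicle level and log2 fold change -0.56 (r -0.54), where the vehicle libraries enter both measures. The part of level in the pattern along the gene was not tested.

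The lower dose left no region of the locus called at 6 h. In edgeR 0 of 41 regions passed against vehicle, 7 had an unadjusted p under 0.05, DESeq2 called 0, and 1.19% of all tested regions were called. Counts at an unadjusted p under 0.05, here and below, have no share over all tested regions beside them. Replicate values did not overlap at 9 regions, against 13.6% of all tested regions. The count was 1, a region called lower, without vehicle replicate 3. The median log2 fold change was -0.38 over the members and -0.04 over all tested regions. At +433 kb the log2 fold change was -0.06 (95% interval -0.76 to 0.64). At +260 kb the 0.1 nM libraries held 1.45, 1.37 and 1.14 CPM, all above the vehicle libraries (log2 1.03, 95% interval 0.08 to 1.97; edgeR adjusted p = 0.484). At the +1 kb region they held 4.73, 3.70 and 4.47 CPM, all below the vehicle libraries (log2 -0.89, 95% interval -1.61 to -0.18; edgeR adjusted p = 0.347), and at -23 kb 10.8, 11.7 and 13.9 CPM, which overlapped them (log2 -0.46, 95% interval -0.90 to -0.02; edgeR adjusted p = 0.529).

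**Figure D3:**
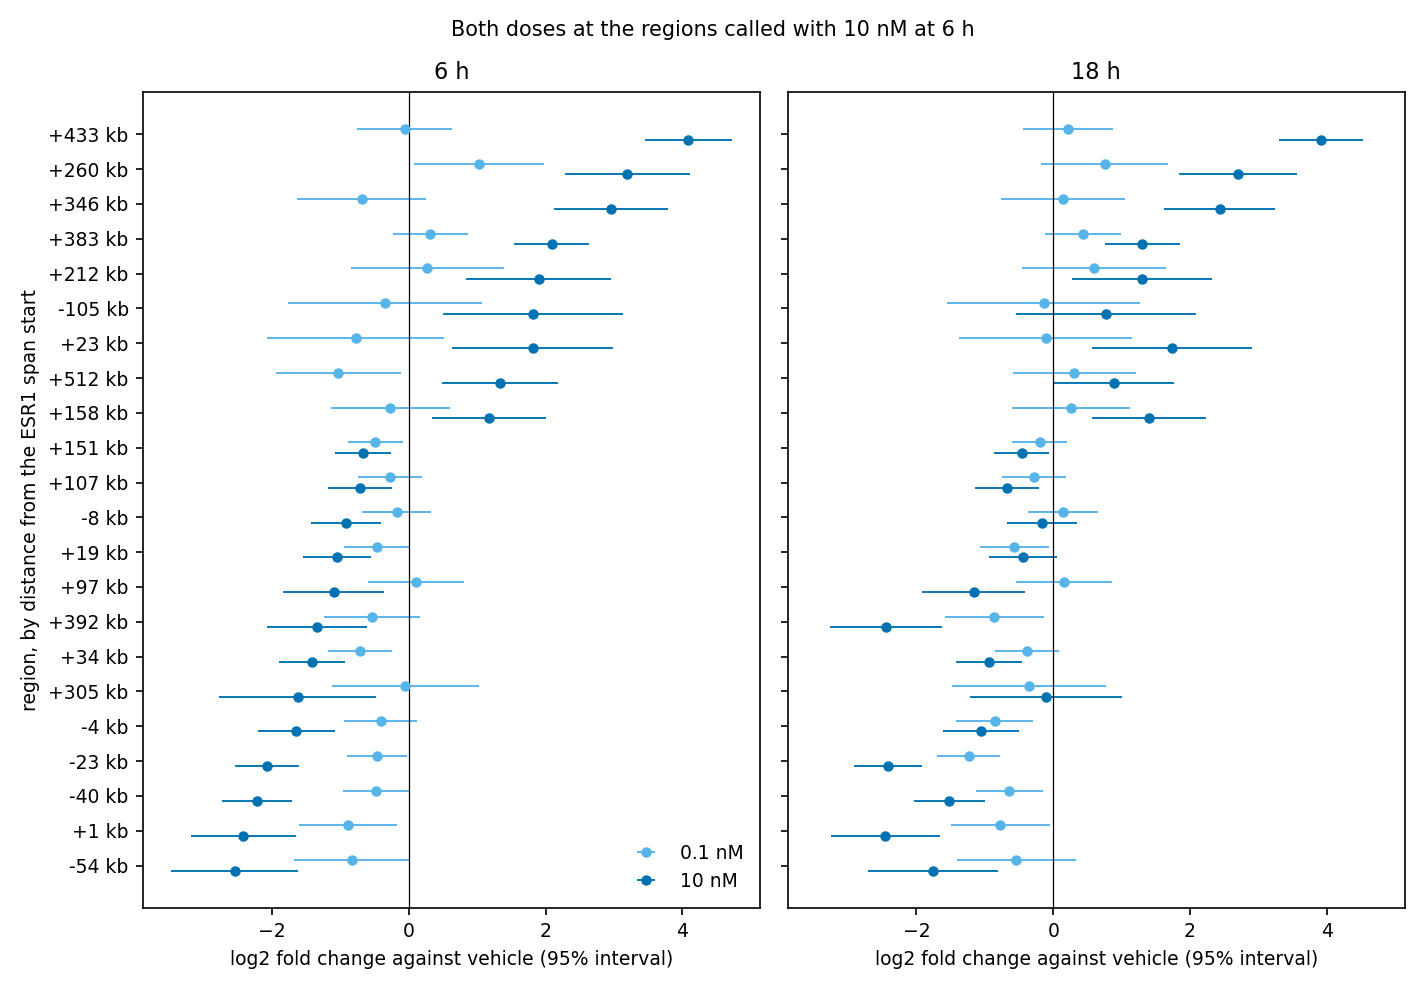
Log2 fold change against vehicle with 0.1 nM (light) and 10 nM (dark) R5020 at 6 h (left) and 18 h (right), with 95% intervals, for the 22 regions called with 10 nM at 6 h, ordered by that change. The doses share their vehicle libraries, and the 0.1 nM points lie nearer 0 than the 10 nM points at the top and bottom of the order at both times.

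The doses themselves differed at 6 h. Against 0.1 nM, 10 nM gave 12 regions called higher and 10 lower, 22 of 41, where 20.4% of all tested regions were called, 15.1% higher and 5.25% lower. Values did not overlap at 28 regions, against 41% of all tested regions. With 10 nM the +433 kb region was 17.7-fold above its level with 0.1 nM (log2 4.15, SE 0.29; edgeR adjusted p = 8.46e-08) and the +346 kb region 12.5-fold higher (log2 3.64, SE 0.40; edgeR adjusted p = 2.41e-06). At the other end, the -40 kb region was 3.34-fold lower (log2 -1.74, SE 0.24; edgeR adjusted p = 3.41e-05), the -54 kb region 3.28-fold lower (edgeR adjusted p = 0.00754) and the -23 kb region 3.06-fold lower (edgeR adjusted p = 2.61e-05). All 9 regions that rose against vehicle and 9 of the 13 that fell were also called against 0.1 nM, comparisons that share the 10 nM libraries. The count was 14 without 0.1 nM replicate 3. The +474 kb region (152451607-152451867), the nearest to the span end, was called higher against 0.1 nM (log2 2.93, SE 0.80; edgeR adjusted p = 0.0113), with 0.656, 0.757 and 0.995 CPM against 0.177, 0.119 and 0 CPM. That call was lost without 0.1 nM replicate 3, its log2 value was 3.93 without 0.1 nM replicate 1, and against vehicle it was 0.90 (edgeR adjusted p = 0.401), or 2.44 (0.0355) without vehicle replicate 3.

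At 18 h the same directions were seen at fewer regions. With 10 nM, 6 regions were called higher and 11 lower, 17 of 41 or 41.5%, where 20.4% of all tested regions were called, 12.8% higher and 7.56% lower. The groups did not overlap at 24 regions, against 33.3% of all tested regions. The median log2 fold change was -0.23 over the members and 0.01 over all tested regions. The +433 kb region held 1.08, 1.18 and 1.77 CPM with vehicle and 26.9, 16.4 and 16.5 CPM with 10 nM. All 10 nM libraries lay far above the vehicle libraries, with replicate 1 the highest. The rise was 15.1-fold (log2 3.91, SE 0.29, 95% interval 3.30 to 4.52; edgeR adjusted p = 5.74e-08), and the region was again first of the 41 per kb, at 35.5 CPM per kb, with 11.6% ± 1.79 of the summed CPM of the interval against 0.681% ± 0.235 with vehicle. The +260 kb region rose 6.50-fold (log2 2.70, SE 0.42; edgeR adjusted p = 8.77e-05), but its 10 nM libraries held 8.72, 2.62 and 3.54 CPM and the log2 value was 1.96 without replicate 1. The +346 kb region rose 5.39-fold (edgeR adjusted p = 0.000122), the +383 kb region 2.47-fold (0.00117), the +23 kb region 3.34-fold (0.032) and the +158 kb region 2.64-fold (0.0158). The call at +23 kb was lost without 10 nM replicate 3 or any 1 of the vehicle libraries and in the covariate fit, and the call at +158 kb without vehicle replicate 2. Both were lost with the compared groups alone. The +212 kb region was not called (log2 1.29, 95% interval 0.27 to 2.31; edgeR adjusted p = 0.0683), but it was called higher with the replicate block (log2 1.40, edgeR adjusted p = 0.0261) and in DESeq2 (log2 1.32, adjusted p = 0.0347).

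The falls at 18 h were largest at +1, +392 and -23 kb. The +1 kb region held 6.81, 5.40 and 6.37 CPM with vehicle and 1.76, 0.327 and 0.932 CPM with 10 nM, a fall of 5.47-fold (log2 -2.45, SE 0.38; edgeR adjusted p = 0.000101). The 10 nM values rested on 67, 4 and 10 counts, and without 10 nM replicate 1 the log2 value was -3.32. The -23 kb region went from 11.2, 16.4 and 12.0 CPM to 1.73, 2.86 and 3.08 CPM, a fall of 5.35-fold (log2 -2.42, SE 0.24; edgeR adjusted p = 6.51e-07). At +392 kb (152370002-152370561) the level went from 4.27, 4.01 and 3.95 CPM to 0.342, 1.23 and 0.932 CPM, a fall of 5.44-fold (log2 -2.44, SE 0.39; edgeR adjusted p = 0.000128). None of these groups overlapped. Smaller falls were called at -54 kb (3.38-fold; edgeR adjusted p = 0.00837), -40 kb (2.86-fold; 0.000175), +97 kb (2.23-fold; 0.0267), -4 kb (2.08-fold; 0.00769), +34 kb (1.92-fold; 0.00581), +107 kb (1.59-fold; 0.0398) and -163 kb (1.57-fold; 0.0169). The +12 kb region was also called lower (log2 -0.68; edgeR adjusted p = 0.0479), but its groups overlapped. The call at -54 kb was lost without 10 nM replicate 1, and that at +97 kb without 10 nM replicate 1 or 3 or vehicle replicate 1. The call at -163 kb was lost without 10 nM replicate 2 or 3 or vehicle replicate 2, and the call at +107 kb without 10 nM replicate 2 or 3 or any 1 of the vehicle libraries, with DESeq2's size factors or with no filter on low counts. The calls at +97, +107 and -163 kb were also lost in the covariate fit and with the compared groups alone. The +151 kb region was not called (log2 -0.46, 95% interval -0.87 to -0.05; edgeR adjusted p = 0.104), but it was called lower with the replicate block (edgeR adjusted p = 0.0397). The +244 kb region was not called either (log2 0.12, 95% interval -0.24 to 0.49), but it was called higher in the covariate fit (log2 0.35, edgeR adjusted p = 0.0441).

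With 0.1 nM at 18 h, 1 of 41 regions was called in edgeR, a share equal to the 2.44% called among all tested regions, and 7 had an unadjusted p under 0.05. The called region was at -23 kb, with 5.84, 5.94 and 4.96 CPM against 11.2, 16.4 and 12.0 CPM with vehicle. Every 0.1 nM library lay below every vehicle library and above every 10 nM library. The fall was 2.35-fold (log2 -1.23, SE 0.22, 95% interval -1.69 to -0.77; edgeR adjusted p = 0.00313), and 10 nM was a further 2.28-fold lower than 0.1 nM (log2 -1.19, SE 0.24; edgeR adjusted p = 0.00251). The 0.1 nM response of this region at 18 h against that at 6 h differed by -0.77 on the log2 scale (95% interval -1.41 to -0.14; edgeR adjusted p = 1), so a change of the response with time was not called. Over the 41 regions the groups did not overlap at 8, against 16.4% of all tested regions, and the median log2 fold change was -0.20 against -0.01 over all tested regions. Among those not called, the log2 fold change was -0.64 at -40 kb (95% interval -1.13 to -0.15; edgeR adjusted p = 0.219) and -0.86 at -4 kb (95% interval -1.42 to -0.30; 0.117). At +433 kb the log2 fold change with 0.1 nM was 0.22 (95% interval -0.45 to 0.88).

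Between the doses at 18 h, 5 regions were higher and 5 lower with 10 nM, 10 of 41, where 10.9% of all tested regions were called, 6.67% higher and 4.22% lower. Values did not overlap at 15 regions, against 22% of all tested regions. The +433 kb region was 13.0-fold higher than with 0.1 nM (edgeR adjusted p = 5.73e-07), the +346 kb region 4.88-fold (0.00063) and the +260 kb region 3.86-fold (0.00302), whose log2 value of 1.95 was 1.22 without 10 nM replicate 1. The +1 kb region was 3.20-fold lower (edgeR adjusted p = 0.00688), the +392 kb region 2.99-fold (0.0129) and the +97 kb region 2.50-fold (0.0215). The call at +1 kb was lost without 0.1 nM replicate 1, and its log2 value of -1.68 was -2.55 without 10 nM replicate 1. The call at +392 kb was lost without 10 nM replicate 1, and the call at +97 kb without 0.1 nM replicate 1 or 10 nM replicate 1 or 3. The calls at +260, +1, +392 and +97 kb were all lost with the compared groups alone, where 2 regions were called. The total was 6 without 0.1 nM replicate 1, and also 6 without 10 nM replicate 1. Of the regions called against vehicle at 18 h, 5 of the 6 that rose and 5 of the 11 that fell were also called against 0.1 nM, comparisons that share the 10 nM libraries.

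The 6 h and 18 h comparisons of 10 nM with vehicle share no library. All 6 regions called higher at 18 h were among the 9 called higher at 6 h (66.7% of the 6 h list and 100% of the 18 h list). Of the 11 called lower at 18 h, 9 were among the 13 called lower at 6 h (69.2% of the 6 h list and 81.8% of the 18 h list), and none was called in opposite directions. Across the 41 regions the log2 fold changes of the times had a Spearman's rho of 0.88 and a Pearson's r of 0.92, a description of regions measured in the same libraries within each time. A direct test of the difference between the times called 0 of 41 regions for 10 nM in edgeR (5 with an unadjusted p under 0.05), where 0.00151% of all tested regions were called, and 0 for 0.1 nM (3 with an unadjusted p under 0.05), where 0% were called. At +383 kb the log2 rise was 2.09 at 6 h and 1.30 at 18 h, a difference of -0.79 (95% interval -1.55 to -0.02; edgeR adjusted p = 0.878). At +392 kb the log2 values were -1.34 and -2.44, a difference of -1.10 (95% interval -2.19 to -0.02; edgeR adjusted p = 0.886). Vehicle cells at 18 h against vehicle cells at 6 h gave 0 called regions in edgeR (1 with an unadjusted p under 0.05) and 0 in DESeq2, where 0% of all tested regions were called.

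**Figure D4:**
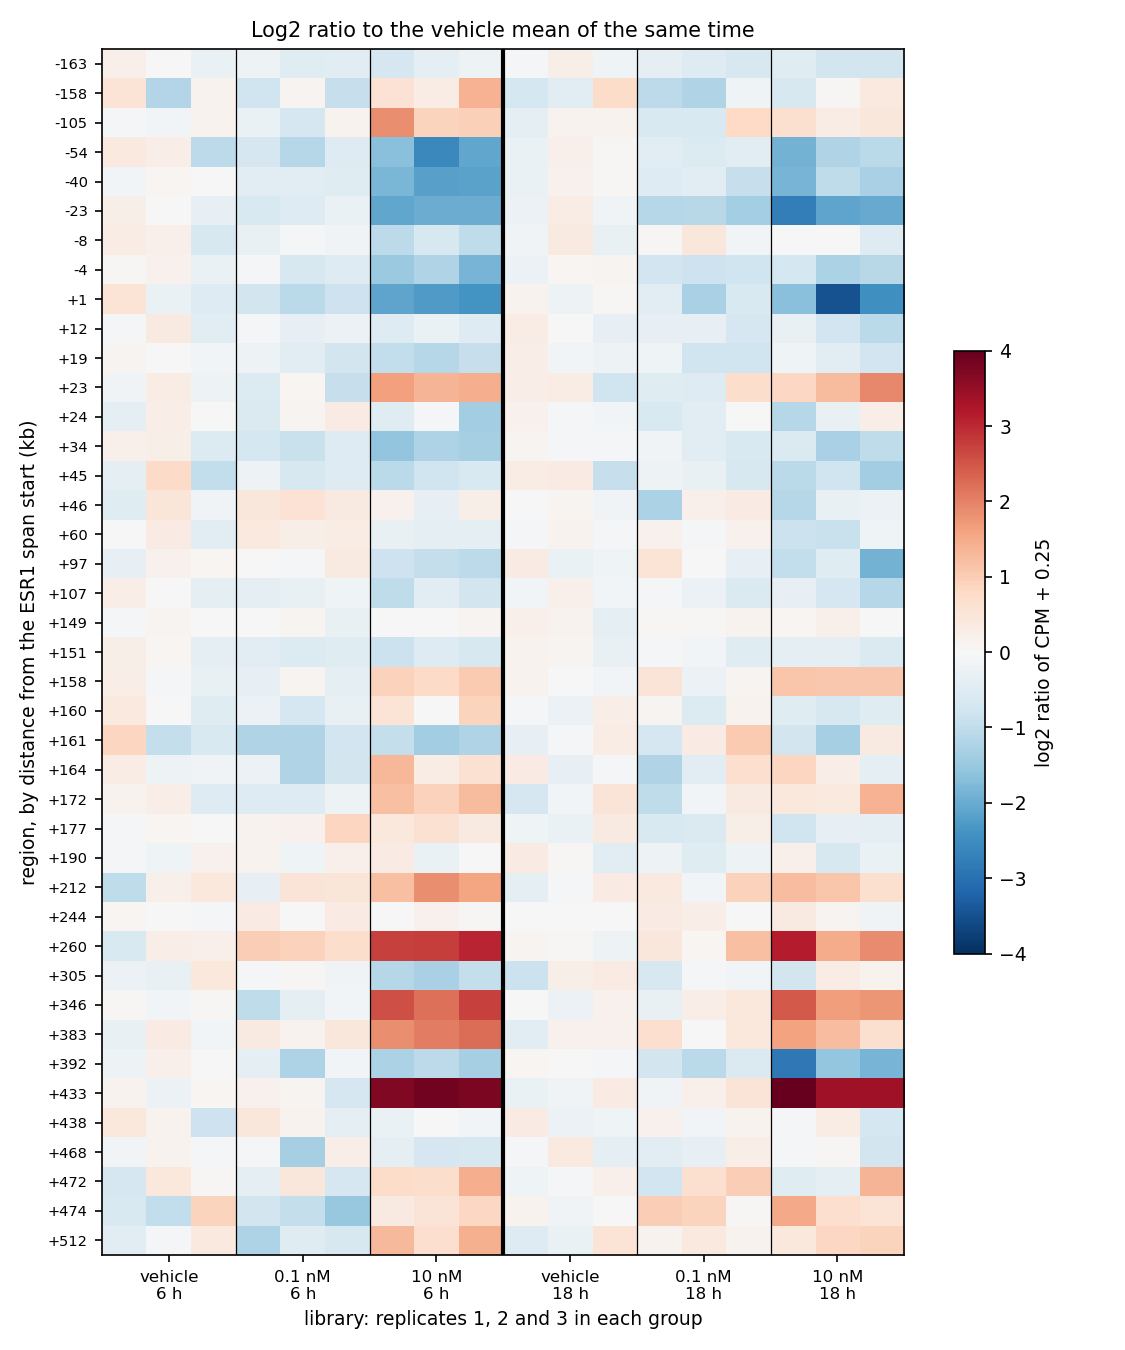
Log2 ratio of each library to the vehicle mean of the same time, on CPM with an offset of 0.25, for the 41 regions in order along the interval (rows, distance in kb) and the 18 libraries (columns). The 10 nM columns are red at +433, +346 and +260 kb and blue around the 5′ end of the span at both times, and the 0.1 nM columns are paler.

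Summed over the interval, accessibility was 232 ± 37.2 CPM with vehicle, 193 ± 10.3 CPM with 0.1 nM and 194 ± 12.6 CPM with 10 nM at 6 h (SD, n = 3). At 18 h it was 199.98 ± 15.0, 169 ± 11.9 and 169 ± 26.2 CPM. Without the +433 kb region the 10 nM sums were 175 ± 11.6 CPM at 6 h and 149.5 ± 20.5 CPM at 18 h, against 231 ± 37.2 and 199 ± 15.3 CPM with vehicle. Scaled by total counts instead of TMM, the mean sums of the 41 regions with vehicle, 0.1 nM and 10 nM were 214, 184 and 197 CPM at 6 h. At 18 h they were 197, 174 and 184 CPM. With DESeq2's size factors they were 234, 192 and 198 CPM at 6 h and 197, 169 and 168 CPM at 18 h. No test was made of these sums. The share held by the 6 regions that were strongest in vehicle cells was 61.4% with vehicle, 60.7% ± 0.878 with 0.1 nM and 46.8% ± 2.82 with 10 nM at 6 h, and 59.5%, 57.9% ± 4.21 and 47.0% ± 1.06 at 18 h. By CPM the +433 kb region was 23rd of the 41 in vehicle cells at both times and the third with 10 nM at both times.

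**Figure D5:**
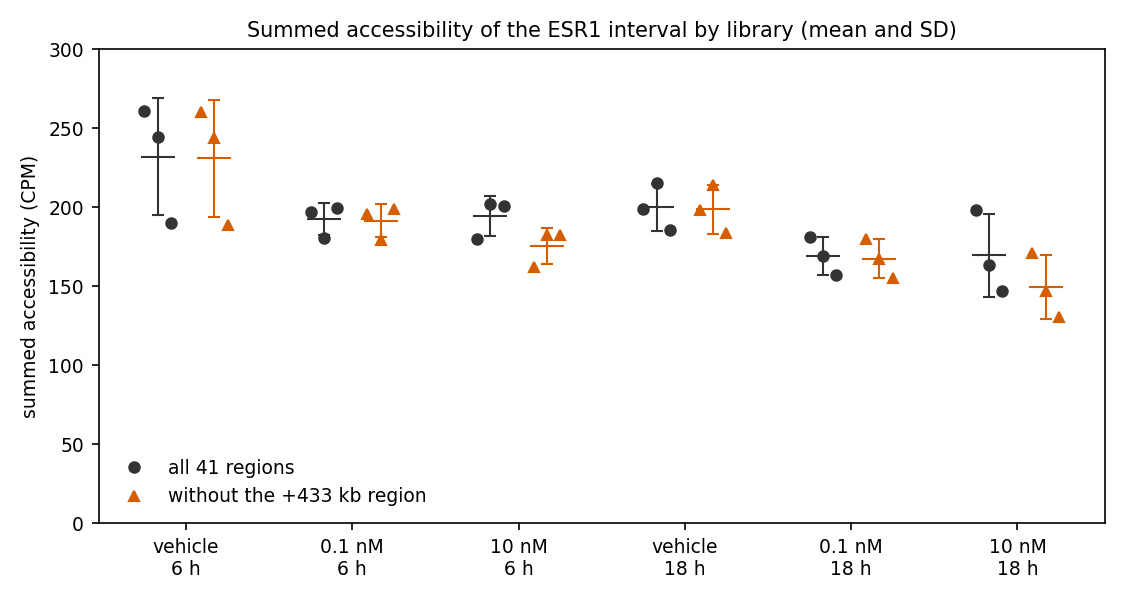
Summed CPM of the 41 regions (circles) and of the 40 others without the +433 kb region (triangles) in every library, with the mean and SD of each group. Vehicle libraries at 6 h are the most spread, and the gap between circles and triangles is widest in the 10 nM groups.

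Across all 18 libraries, 3 regions elsewhere in the genome followed the +433 kb region most closely by Pearson's r of log2 CPM. They were chr5:159162640-159163520 (r = 0.990), chr2:27237861-27238424 (r = 0.988) and chr5:131840534-131841480 (r = 0.988), and they share libraries and depth with it. At 6 h the chromosome 2 region held 1.58 ± 0.364 CPM with vehicle, 1.36 ± 0.583 CPM with 0.1 nM and 24.3 ± 3.81 CPM with 10 nM (SD, n = 3). The first of the chromosome 5 regions held 4.38 ± 0.788, 3.91 ± 0.702 and 58.2 ± 6.82 CPM. Within the ESR1 interval the closest were the regions at +346 kb (r = 0.944), +158 kb (0.901), +260 kb (0.893), +23 kb (0.838) and +383 kb (0.831), and the -40 kb region ran most against it (r = -0.912).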

How the data were processed

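Omni-ATAC-seq counts of 18 T47D libraries were analysed. The authors deposited 1 table of raw counts per region for all libraries, without normalization. BWA, MACS2 and hg19 are named per the submitters' processing notes. Not given in the sources used here are tool versions, read filtering, a Tn5 shift and how the list of regions was built, so a region open in few libraries may be missing. Whether starts count from 0 or 1 is not stated, and widths are end minus start.

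The members, the named regions' rule and the alternatives were chosen with earlier results of these data known. Named singly were the 6 members highest in vehicle, up to 6 called members per direction for each dose against vehicle, up to 3 in the other comparisons, those nearest the span ends and the widest, 22 in all. The other 19 are given by counts, apart from +12, +19 and +149 kb, picked after their values were seen. In addition, 3 regions elsewhere were named by correlation.

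Counts were tested in R 4.3.3 with edgeR 4.0.16 (filterByExpr with minimum count 10 and minimum total 15, TMM, glmQLFit and glmQLFTest) in a single fit, 1 mean for each group, which left 12 residual degrees of freedom. Benjamini-Hochberg adjustment ran over the 132304 regions tested, and 300 were left out by the filter. The SE is the log2 fold change divided by the square root of F, or the fit's covariance for changes within 0.01 of 0. A prior count of 2 entered log2 CPM. The scripts were tested on simulated data. Chi-square per degree of freedom between replicates ran from 3.28 to 27.8, above sampling noise, so none was merged.

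The labels number replicates in each group but state no shared culture. Same-numbered libraries deviated together, with every r over 0.1, between the doses at 18 h (0.599, 0.192 and 0.454) and between the vehicle times (0.317, 0.121 and 0.446), so any pairing here is read from the data. Alternatives were DESeq2 1.42.0, its size factors in edgeR, no filter, stricter thresholds, the replicate block, the compared groups alone, a covariate and each library left out. A fit without the 2 libraries that lay apart was chosen after seeing the data.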

Additional observations from a re-analysis of the deposited data

How the results depend on the processing

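Depth limits the weak regions most: 16 of the 41 lay under 1 CPM in vehicle cells, and changes there have wide intervals. Of 48 calls at named regions, 29 held in all 15 alternatives run. At an adjusted p under 0.01, 10 nM had 14 called regions against vehicle and 12 against 0.1 nM at 6 h, then 11 and 5 at 18 h. With the compared groups alone they were 11 for 10 nM against vehicle at 18 h and 2 between the doses at 18 h. In the fit with a covariate for the share of the strongest regions, 14 were called with 10 nM at 6 h. That share was lower with 10 nM, without overlap with vehicle at 6 h, so the fit cannot fully part it from the dose. Without the 2 libraries that lay apart, 6 were called between the doses at 18 h. The cause of these moves was not tested, apart from the stricter threshold. Shares of all tested regions called are given for the main fit alone. For the alternatives, here and below, whether calls moved at this locus or over all regions is therefore not known.

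A fit that took replicate numbers as a replicate block gave 23 with 10 nM at 6 h, 24 between the doses at 6 h, 20 with 10 nM at 18 h and 11 between the doses at 18 h, against 22, 22, 17 and 10 without it. For 0.1 nM the block gave 0 and 1, and for the vehicle times 0.

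Leaving out each library in turn, 10 nM had 13 to 20 calls at 6 h and 12 to 17 at 18 h, and 0.1 nM had 0 to 1 and 1. Between the doses there were 14 to 21 at 6 h and 6 to 9 at 18 h. There were 0 for the vehicle times and for both tests of a response between times. Summed CPM ran from 217 to 253 with vehicle, 189 to 198 with 0.1 nM and 190.3 to 202 with 10 nM at 6 h, and from 192 to 207, 163 to 175 and 155 to 181 at 18 h.

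Signs turned at regions that were not called. For 10 nM at 18 h, +244 kb had a log2 value of -0.012 without the 2 libraries that lay apart and -0.018 to 0.25 with 1 library left out. The +305 kb region had 0.32 and -0.49 to 0.31 in the same fits. In the covariate fit +244 kb was called higher (0.35). The cause was not tested.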

Other observations

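Neighbouring regions of the ESR1 locus moved in opposite directions in several places, which were picked out after the values were seen. The +383 and +392 kb regions are next to each other in the list. With 10 nM at 6 h the first rose 4.26-fold (edgeR adjusted p = 7.00e-06) and the second fell 2.54-fold (edgeR adjusted p = 0.00688), and at 18 h they rose 2.47-fold (0.00117) and fell 5.44-fold (0.000128). Near the 5′ end, the +23 kb region rose 3.51-fold at 6 h (edgeR adjusted p = 0.0221) while the +19 kb region before it fell 2.07-fold (0.00236). The -105 kb region, called higher at 6 h, is followed in the list by the -54 kb region, called lower. They are not close, since the first ends at -104.5 kb and the second starts at -53.9 kb. At 18 h the -105 kb region was not called (log2 0.77, edgeR adjusted p = 0.427), nor was the +19 kb region (log2 -0.45, 0.204). The 6 h calls at -105 and +23 kb were lost with some single libraries left out, as given above.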
